A study of Mus musculus with 20 samples.

Results

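The proteasome subunit genes were the entries of the gene table whose symbol is Psm followed by a letter from a to g and a number, without the immunoproteasome genes Psmb8, Psmb9 and Psmb10. They were 48 of 25308 entries and carried 46 symbols, because Psmd10 and Psme2 each stood under 2 gene identifiers. By the known place of each product, 14 entries encode the core particle (7 alpha and 7 beta subunits) and 17 the regulatory particle (6 ATPases and 3 other subunits of the base, and 8 of the lid). The others are 4 entries for base assembly chaperones (Psmd5, Psmd9 and Psmd10), 4 for core assembly chaperones (Psmg1 to Psmg4), 6 for activators (Psme1 to Psme4 and Psme2b), the inhibitor Psmf1, and the tissue-restricted core forms Psma8 of testis and Psmb11 of thymus.

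Sequenced RNA of the cardiac apex from 20 mice served to ask what amyloid deposits, and the circulating light chain alone, change in the heart. The 9 AL mice were λS-DH mice with cardiac amyloid after induction, the 4 LS mice were λS-DH mice that were not induced and had no deposits, and the 7 Ctrl mice were DH mice. All 3 groups carry DH-LMP2A, which allows plasma cells to arise although no Ig heavy chain is made, and λS-DH mice also carry a human λS light chain gene inserted in the Ig kappa locus, so that plasma cells and not heart cells make the light chain. Induction was a single intravenous injection of fibrils or of the soluble variable domain of that light chain, and which of them each AL mouse received, and the age of each mouse, are not given in the sources used here (Ctrl mice were matched to AL mice by age). By the split used here, a first sequencing run held AL1 to AL7, all 4 LS mice and Ctrl1 to Ctrl4. A second run held AL8, AL9 and Ctrl5 to Ctrl7. Titles and library names do not state the run, and the split goes with the form of the library names.

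The proteasome degrades proteins that carry ubiquitin chains. Its barrel-shaped core particle is built of rings of alpha and beta subunits and cuts proteins inside, while the regulatory particle at its end binds the ubiquitin chain, removes it, and unfolds the protein with its ATPase ring. Heart muscle cells rely on it for the turnover of sarcomere proteins and damaged proteins, and blocking it leads in many cells to higher transcription of the subunit genes together, through the factor NRF1 (gene Nfe2l1).

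Values below are estimated counts scaled for library size with TMM factors (CPM). Libraries had 43993277 to 62668146 counts in the first run and 7867642 to 11794615 in the second, and 3 counts, taken as a floor for counting error only, were 0.0479 to 0.381 CPM. Differences are log2 fold changes (log2FC) from edgeR's quasi-likelihood test with group and run in the model, and FDR is the p-value adjusted by the Benjamini-Hochberg method over all 14477 tested genes. Heart muscle markers (8 of 8 detected) summed to 55870 to 83160 CPM per mouse. Nothing in the labels ties mice to litters, so p-values measure the spread between these mice, and in whole tissue, fewer cells of a type and less RNA per cell cannot be told apart.

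Of the 48 entries, 46 passed the filter on low counts. The thymus form Psmb11 had 1 count in 1 mouse (Ctrl1), and the second Psme2 entry (ENSMUSG00000116285) was at 0 in every mouse. Per kilobase of transcript in the first run (mean CPM divided by the median transcript length), core subunits ranged from 28.4 for Psma2 to 102.9 for Psmb6, with a median of 69.0, and subunits of the regulatory particle ranged from 27.3 for Psmd11 to 101.4 for Psmc3, with a median of 45.1. The median of all tested genes with a length was 4.29 on the same scale. The highest level per kilobase belonged to Psme1 (154.7), a subunit of the interferon-responsive activator, and the assembly chaperones without Psmd10, whose reads are split between entries, lay between 3.75 and 16.4. The testis form Psma8 was at 0.766 CPM per kilobase.

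AL mice differed from both control groups in a few single subunits, by small amounts. In AL against Ctrl mice, 2 of 46 entries were higher at an FDR under 0.05 (Psmc4 and Psmd4), against 10.7% of all tested genes, and 6 were lower (Psmd1, Psmd5, Psmc6, Psme1, Psmd6 and Psmg4), against 15.4%. Together 8 were called, which is 17.4% of the members beside 26.2% of all tested genes. The median log2FC of the members was -0.05, beside 0.01 for all tested genes. In AL against LS mice, 1 was higher (Psmc4), against 9.78% of all genes, and 5 were lower (Psmd1, Psmd5, Psmd2, Psmc6 and Psmg4), against 13.6%; together 13.0% of the members were called beside 23.4% of all genes. Against the merged LS and Ctrl mice, 3 of 46 were higher (Psmc4, Psmd4 and Psmd3) and 8 lower (the 6 named against Ctrl, with Psmd2 and Psmd11), beside 16.5% and 19.8% of all genes (36.2% in both directions). These 3 comparisons share the AL mice, and the last shares its controls with the others.

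The changes were small. Of the members, 0 reached an absolute log2FC of 0.58 at this FDR in AL against Ctrl or AL against LS mice, where 7.81% and 8.9% of all tested genes did so. The calls depended on how the sequencing run was handled. With ComBat-seq adjustment of the counts in place of the run term, edgeR called 0 members in AL against Ctrl (3 at an unadjusted p under 0.05), 0 in AL against LS (2) and 0 in AL against merged controls (3), where it called 5.35%, 4.42% and 11.4% of all genes. The median standard error of the members in AL against Ctrl mice was 0.169 on the adjusted counts and 0.0818 with the run term, and their median log2FC was -0.04 and -0.05.

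**Figure D1:**
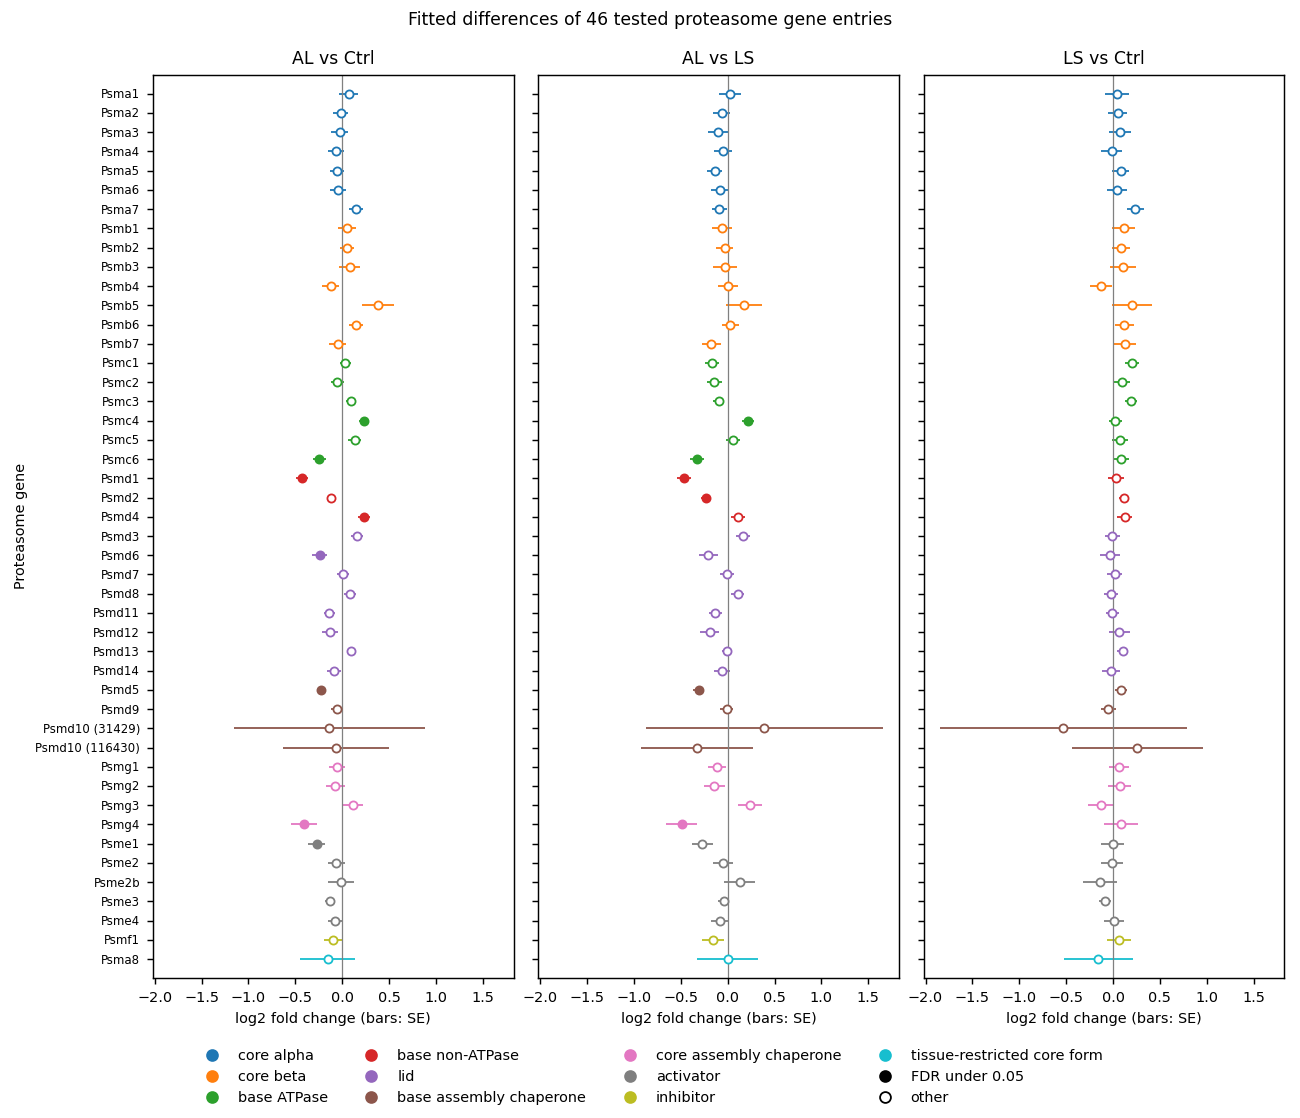
Fitted log2 fold changes (points) with standard errors (bars) of the 46 tested entries in LS against Ctrl mice and in AL mice against either group, coloured by class, with filled points at an FDR under 0.05. The filled points lie in the regulatory particle, the chaperones and an activator, none lies in the core particle, none lies in LS against Ctrl, and the 2 entries of Psmd10 have by far the widest bars. Regulatory particle entries were called at 29.4% against Ctrl and 23.5% against LS mice, near the 26.2% and 23.4% of all tested genes. Against Ctrl mice their median standard error was 0.0616, and that of the core entries was 0.0879.

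Of the 14 core subunits, edgeR called 0 in AL mice against Ctrl mice, LS mice or merged controls (1, 0 and 0 at an unadjusted p under 0.05), and DESeq2 called 0 (3, 0 and 1 at an unadjusted p under 0.05). Of all tested genes edgeR called 26.2%, 23.4% and 36.2% in these comparisons. The core subunits had a median log2FC of 0.02 in AL against Ctrl and -0.05 in AL against LS mice, with a range from -0.12 to 0.38 in the first and from -0.17 to 0.18 in the second. The median standard error of a single core gene was 0.0879 and 0.103, which is not an error of these medians. The count against Ctrl mice depended on the mice used. With the first run fitted alone, edgeR called 2 core subunits (5 at an unadjusted p under 0.05), and their class had a median log2FC of 0.09. Without AL9 it called 1 (5 at an unadjusted p under 0.05), beside 24.6% of all tested genes, and the class median was 0.10. The alpha subunit of lowest p was Psma7, part of the alpha ring, which lay at 53.9 to 91.7 CPM in AL (median 82.6), at 81.7 to 95.7 in LS and at 60.5 to 78.7 in Ctrl mice (median 70.2). AL mice overlapped both other groups, and its log2FC against Ctrl mice was 0.15 (SE 0.0727, edgeR FDR = 0.133).

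The 3 catalytic subunits give the proteasome its cutting activities. Psmb6 (ENSMUSG00000018286, chromosome 11, 70525367 to 70527858 on GRCm38), the caspase-like site, lay at 56.6 to 104 CPM in AL (median 81.0), at 80.0 to 87.2 in LS and at 49.4 to 80.2 in Ctrl mice (median 72.7). Psmb7 (ENSMUSG00000026750, chromosome 2, 38588036 to 38644087), the trypsin-like site, lay at 53.5 to 125.7 CPM in AL (median 104.9), at 120.8 to 132.9 in LS and at 77.0 to 120.6 in Ctrl mice (median 102.1). AL mice overlapped both other groups for both genes, and the lowest AL value in each was that of AL9. The log2FC in AL against Ctrl mice was 0.15 (SE 0.0778, FDR = 0.168) for Psmb6 and -0.05 (SE 0.0891, FDR = 0.72) for Psmb7 by edgeR's quasi-likelihood test.

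Psmb5 (ENSMUSG00000022193, chromosome 14, 54614119 to 54618022), the chymotrypsin-like site and the target of proteasome inhibitor drugs, had the largest standard error of the core subunits. It lay at 35.7 to 77.7 CPM in the 7 AL mice of the first run, and at 23.5 and 22.2 in AL8 and AL9. LS mice had 53.3, 53.4, 56.5 and 37.9 CPM, the Ctrl mice of the first run 38.6, 33.7, 54.2 and 34.4, and those of the second run 21.9, 18.3 and 31.3. Within the first run AL mice had a log2FC of 0.56 over Ctrl mice (SE 0.187, edgeR FDR = 0.0447), with AL4 and AL6 inside the Ctrl range, and with both runs the log2FC was 0.38 (SE 0.169, edgeR FDR = 0.104). Its estimated count was not a whole number in 19 of 20 mice, so that part of its reads was divided by estimate with another entry, which was not identified here, and its level is uncertain.

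Core subunits varied together from mouse to mouse. In the 15 mice of the first run, with group means removed, the median Pearson correlation of log2 CPM over pairs of the 14 core genes was 0.67, over pairs of the 17 regulatory genes 0.30 and between core and regulatory genes 0.26, where all pairs of tested genes had a median of -0.0021 (14476 genes with a spread; the genes share the libraries and their depth). Among the core genes, Psmb5 had the lowest median correlation with the others (0.29) and Psmb1 the highest (0.79). AL1 had the highest core mean of all mice, 6.454 log2 CPM beside 6.166 to 6.31 in the other AL mice of that run. Its part in these correlations was not tested.

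In the base of the regulatory particle, Psmd1 (ENSMUSG00000026229, chromosome 1, 86064387 to 86139151), the largest subunit of the base and a scaffold for ubiquitin receptors, had the lowest FDR of all members. AL1 to AL9 had 84.1, 122.7, 111.6, 98.0, 103.8, 99.7, 104.2, 108.0 and 94.9 CPM. LS mice had 143.6, 138.5, 139.8 and 149.7 CPM, and Ctrl1 to Ctrl7 had 140.5, 134.8, 140.7, 144.6, 142.8, 139.9 and 125.0. Every AL mouse was below every LS and Ctrl mouse, in both runs. The log2FC was -0.43 (SE 0.0637, edgeR FDR = 0.000241) against Ctrl and -0.46 (SE 0.0745, FDR = 0.00062) against LS mice. Within the first run it was -0.44 (edgeR FDR = 0.00196) and within the second -0.42 (FDR = 0.0267) against Ctrl mice. On ComBat-seq adjusted counts the edgeR FDR against Ctrl mice was 0.157. Psmd1 overlaps Htr2b on the other strand, and its estimated count was not whole in 13 of 20 mice. In the first run alone, 2 members (Psmd1 and Psmg4) had every AL mouse below every LS and Ctrl mouse, beside 6.41% of all tested genes, and 0 had every AL mouse above, beside 3.01%.

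**Figure D2:**
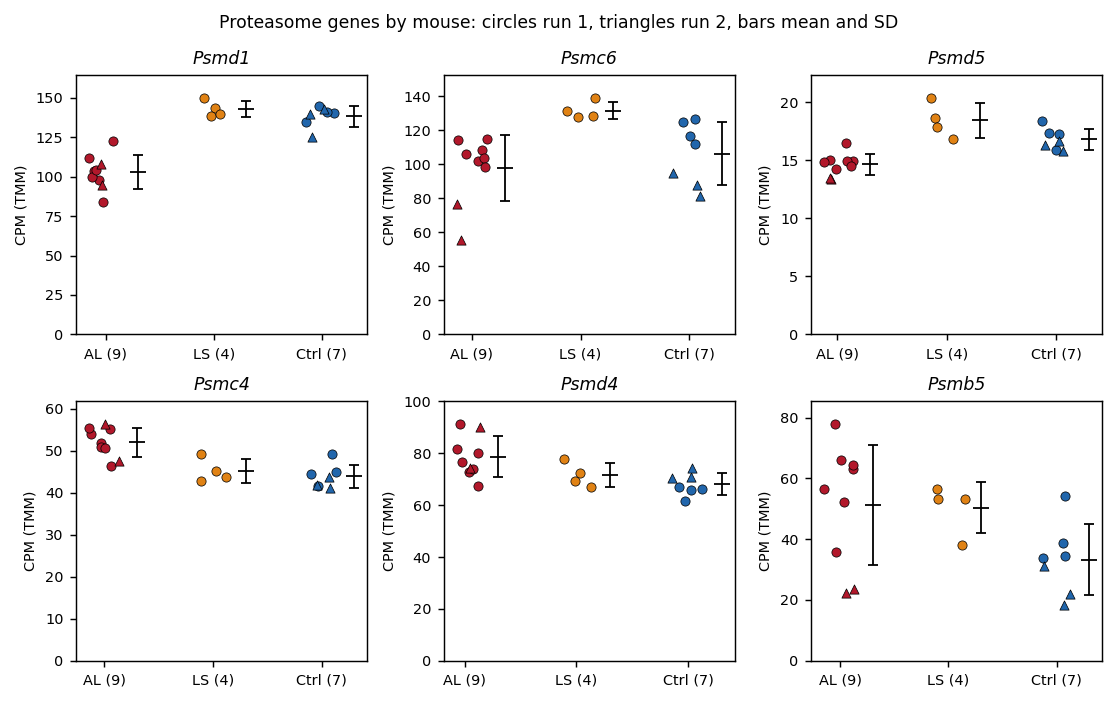
TMM-scaled CPM of 6 proteasome genes in each mouse, by group, with circles for the first run, triangles for the second, and the mean and SD of each group as bars, on axes from 0. Every AL value of Psmd1 is below every LS and Ctrl value, Psmc6 and Psmb5 are lower in the second run in AL and Ctrl mice, and AL and Ctrl mice overlap for Psmd5, Psmc4 and Psmd4.

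Psmd2 (ENSMUSG00000006998, chromosome 16, 20651652 to 20663414), the other large scaffold of the base, lay at 170.4 to 199.6 CPM in AL (median 189.1), at 211.8 to 226.1 in LS and at 191.9 to 213.2 in Ctrl mice (median 204.0). All AL mice were below all LS mice and overlapped the Ctrl range. The log2FC was -0.23 (SE 0.0505, edgeR FDR = 0.00376) against LS and -0.11 (SE 0.0428, FDR = 0.054) against Ctrl mice.

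Psmd4 (ENSMUSG00000005625, chromosome 3, 95032694 to 95042614), a receptor that binds ubiquitin chains, moved the other way. It lay at 67.6 to 91.1 CPM in AL (median 76.7), at 67.1 to 77.9 in LS and at 61.7 to 74.2 in Ctrl mice (median 66.9), and the groups overlapped. The log2FC was 0.23 (SE 0.0616, edgeR FDR = 0.00997) against Ctrl and 0.11 (SE 0.0726, FDR = 0.283) against LS mice. The call against Ctrl mice was lost with liver genes as a covariate (log2FC 0.17, edgeR FDR = 0.149). Summed liver genes themselves separated AL from Ctrl mice in the first run, so this covariate and the group cannot be told apart there.

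The 6 ATPases of the base form the ring that unfolds substrates. Psmc4 (ENSMUSG00000030603, chromosome 7, 28041707 to 28050101) lay at 46.5 to 56.3 CPM in AL (median 51.9), at 42.9 to 49.2 in LS and at 41.2 to 49.3 in Ctrl mice (median 43.7). It was higher in AL mice by a log2FC of 0.23 (SE 0.0543, edgeR FDR = 0.00456) against Ctrl and 0.21 (SE 0.0645, FDR = 0.0234) against LS mice. The call against LS mice was lost when LS1, LS2 or LS4 was left out (FDR 0.0696 to 0.0993). It was also lost with no run term, with only the 2 groups compared and with a block for replicate number. That block also removed the call against Ctrl mice.

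Psmc6 (ENSMUSG00000021832, chromosome 14, 45329788 to 45349705), another ATPase, was lower. In the first run AL mice lay at 98.4 to 114.9 CPM, LS mice at 127.8 to 139.0 and Ctrl mice at 112.0 to 126.9. In the second run AL8 and AL9 had 76.6 and 55.4 CPM, and Ctrl5 to Ctrl7 had 81.3, 94.7 and 87.9. AL mice were below the Ctrl mice of the second run and overlapped them in the first. The log2FC was -0.25 (SE 0.0674, edgeR FDR = 0.0126) against Ctrl and -0.33 (SE 0.0779, FDR = 0.0059) against LS mice. Both calls were lost with no run term, and that against Ctrl mice also with the replicate block. Of the other 4 ATPases, 0 were called in either comparison, with log2FC from -0.05 for Psmc2 to 0.13 for Psmc5 against Ctrl mice.

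The 8 lid subunits carry and place the enzyme that removes ubiquitin chains, which Psmd14 encodes. In AL against Ctrl mice 1 of them was called, Psmd6 (ENSMUSG00000021737, chromosome 14, 14112174 to 14120984), and in AL against LS mice 0 were called by edgeR (1 at an unadjusted p under 0.05). Psmd6 lay at 32.01 to 60.1 CPM in AL (median 50.2), at 51.2 to 68.0 in LS and at 44.6 to 63.2 in Ctrl mice (median 56.9), with overlap, and AL9 was the lowest of all mice. Its log2FC was -0.24 (SE 0.0843, edgeR FDR = 0.0409) against Ctrl mice. The call was lost when any of AL1 to AL6, AL9, Ctrl1, Ctrl3, Ctrl4, Ctrl6 or Ctrl7 was left out (FDR 0.0509 to 0.115). It was also lost with no run term, with only the 2 groups compared and with liver genes as a covariate.

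Psmd3 (ENSMUSG00000017221, chromosome 11, 98682554 to 98695979), a structural subunit, and Psmd11 (ENSMUSG00000017428, chromosome 11, 80428615 to 80473248), which helps to join the lid to the core, were called over both runs in AL against merged controls and in neither comparison with a single group. Psmd3 had a log2FC of 0.16 (SE 0.0537, edgeR FDR = 0.0249), lost in the first run alone (log2FC 0.11, FDR = 0.0829), with no run term, with the replicate block, and without AL1 or AL4 (FDR 0.0501 to 0.051). Psmd11 had a log2FC of -0.14 (SE 0.0478, edgeR FDR = 0.0329), lost with RLE factors, with no run term, with the replicate block, with liver genes as a covariate, and without AL1, AL3, AL5, AL6, AL9 or Ctrl4 (FDR 0.0517 to 0.106 for the left-out mice). Psmd14 itself had a log2FC of -0.08 (edgeR FDR = 0.416) in AL against Ctrl mice.

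The promoters of the subunits are shown because the regulatory particle genes share a short element. RefSeq promoters on GRCm38.p6 (250 bases before and 50 from the transcript start on) were given for 38 of 46 member symbols. CGGAAG, the core of sites bound by ETS factors, was searched on both strands together with CCAAT and TGACNNNGC, the core of antioxidant response elements (none of the motifs contains another). CGGAAG was found in 13 of 14 promoters of regulatory particle genes (92.9%) and in 4 of 11 of core genes (36.4%), beside 18.8% of all 27025 genes with a promoter and 32% of the 11150 tested genes among them. Psmc5 was the regulatory particle gene without it. Windows of the 6 subunits of base and lid called in AL against Ctrl or LS mice are written here in the gene's direction, with the match in capitals (CTTCCG where it lies on the other strand). Psmc4 and Psmd6 hold 2 matches, of which 1 is shown.
Psmd1: gatctcgagaggCGGAAGctgcataaaaga
Psmd2: atccgcagggcgCTTCCGgtctggaggaca
Psmd4: ttacagctgttcCGGAAGctgctgcgaagg
Psmc4: ctatgtgaaggaCTTCCGttggcgtcagcg
Psmc6: aggcgggccagcCGGAAGgggcggagccag
Psmd6: cgactcctcctgCTTCCGctggtggcccag
These windows lie at chr1:86064535-86064564 (plus strand, Psmd1), chr16:20651614-20651643 (plus, Psmd2), chr3:95042721-95042750 (minus, Psmd4), chr7:28050063-28050092 (minus, Psmc4), chr14:45329713-45329742 (plus, Psmc6) and chr14:14120925-14120954 (minus, Psmd6). Genes that rose (Psmc4 and Psmd4) and genes that fell in AL mice both held the match. With the match in 13 of 14 of these promoters, its presence cannot tell called from other subunits or rising from falling ones. In GENCODE the Psmd1 gene begins upstream of its window, while in RefSeq it begins downstream.

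TGACNNNGC, the kind of element that NRF1 is known to bind, was found in 6 of 38 member promoters (15.8%), beside 14% of all genes and 16.9% of tested genes, and CCAAT in 13 (34.2%), beside 41.1% and 42.5%. The members with TGACNNNGC were Psmb5, Psmb6, Psmc6, Psmd9, Psmd12 and Psme4. The 200 bases before the RefSeq start of Psmb6 (chr11:70525157-70525356, plus strand) are printed because its match ends at the base next to the start.
Psmb6: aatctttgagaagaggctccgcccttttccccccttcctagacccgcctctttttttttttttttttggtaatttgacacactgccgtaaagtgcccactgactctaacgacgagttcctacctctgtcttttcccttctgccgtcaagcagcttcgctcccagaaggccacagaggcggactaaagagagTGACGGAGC
The match is in capitals. A match of letters is not a bound site, and a missing match says only that the letters are not in this window.

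Among the assembly chaperones, Psmd5 (ENSMUSG00000026869, chromosome 2, 34849734 to 34874968), which helps to assemble the base, was lower in AL mice. It lay at 13.4 to 16.5 CPM in AL (median 14.8), at 16.9 to 20.3 in LS and at 15.8 to 18.4 in Ctrl mice (median 16.6). AL2 at 16.5 CPM was the only AL mouse above the lowest Ctrl mouse. The log2FC was -0.22 (SE 0.051, edgeR FDR = 0.00431) against Ctrl and -0.31 (SE 0.0587, FDR = 0.00157) against LS mice. The call against Ctrl mice was lost with the replicate block. Psmd9, another base chaperone, had a log2FC of -0.06 (edgeR FDR = 0.492) against Ctrl mice.

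Psmd10, known as gankyrin and a chaperone of the base, could only be read as the sum of its entries. The entry ENSMUSG00000031429 (chromosome X, 140948429 to 140956728) ranged from 0 to 7.83 CPM and the entry ENSMUSG00000116430 from 0 to 9.86 CPM. The sum of their estimated counts was a whole number (within 0.005) in 20 of 20 mice, although each was fractional in 13. The summed value lay at 4.48 to 9.84 CPM in AL (median 8.12), at 7.58 to 9.93 in LS and at 4.46 to 8.97 in Ctrl mice (median 8.1). The summed gene had a log2FC of 0.02 (SE 0.114, edgeR FDR = 0.935) against Ctrl and -0.12 (SE 0.131, FDR = 0.554) against LS mice, where the separate entries had standard errors of 1.02 and 0.564 against Ctrl.

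**Figure D3:**
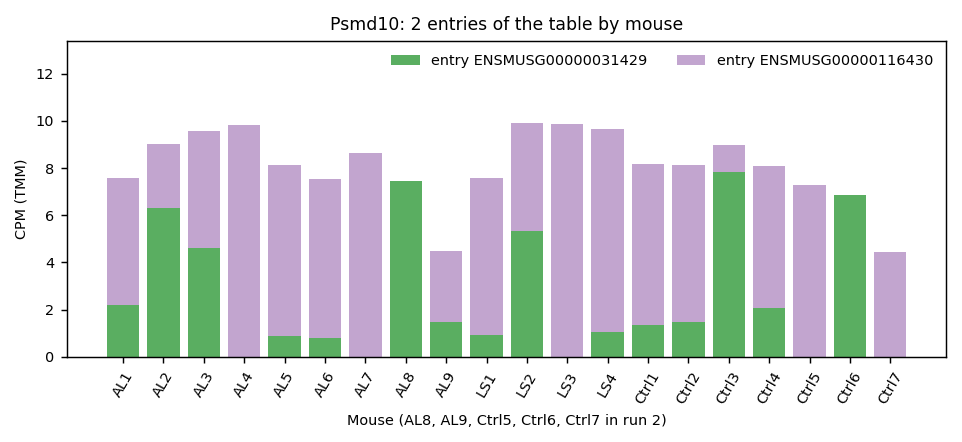
TMM-scaled CPM of the 2 table entries of Psmd10, stacked for each mouse, so that the height of a bar is their sum. The share of each entry differs from mouse to mouse, with a single entry at 0 in AL4, AL7, AL8, LS3, Ctrl5, Ctrl6 and Ctrl7, while the sums lie between 4.46 and 9.93 CPM.

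The core assembly chaperones Psmg1 to Psmg4 are needed to build the alpha ring. Psmg4 (ENSMUSG00000071451, chromosome 13, 34162964 to 34178173) lay at 2.47 to 3.73 CPM in AL (median 3.18), at 3.85 to 4.92 in LS and at 2.29 to 4.77 in Ctrl mice (median 4.38). In the first run every AL mouse was below every LS and Ctrl mouse, and in the second Ctrl5 (2.36) and Ctrl6 (2.29) were below both AL mice. The log2FC was -0.41 (SE 0.142, edgeR FDR = 0.0413) against Ctrl and -0.49 (SE 0.166, FDR = 0.0383) against LS mice. The call against Ctrl was lost without AL1, AL2, AL3, AL5, AL6, LS3, Ctrl1, Ctrl2, Ctrl3, Ctrl4 or Ctrl7 (FDR 0.05 to 0.0908), and that against LS without AL1, AL2, AL3, AL5, AL6, LS2, LS3 or LS4 (FDR 0.0502 to 0.106). The call against Ctrl was also lost with no filter on low counts, with no run term and with only the 2 groups compared. Xist or liver genes as a covariate removed it too. Psmg1, Psmg2 and Psmg3 had log2FC of -0.05, -0.07 and 0.12 against Ctrl mice, and none was called.

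Psme1 (ENSMUSG00000022216, chromosome 14, 55578123 to 55581529) and Psme2 form the activator that interferon induces. Psme1 lay at 83.1 to 139.8 CPM in AL (median 93.3), at 102.4 to 130.1 in LS and at 114.1 to 135.3 in Ctrl mice (median 123.4). In the first run 6 of 7 AL mice were below every LS and Ctrl mouse, AL4 (126.1 CPM) lying within their range, and AL8 (139.8) was the highest of all mice. The log2FC was -0.27 (SE 0.0929, edgeR FDR = 0.0373) against Ctrl and -0.27 (SE 0.11, FDR = 0.0835) against LS mice. The former call was lost without AL1, AL3, AL5, AL7, AL9, Ctrl1, Ctrl2, Ctrl4, Ctrl5 or Ctrl7 (FDR 0.0508 to 0.0982). It was also lost with only the 2 groups compared, with the replicate block, and with Xist or liver genes as a covariate. Psme1 overlaps Emc9 on the other strand.

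Psme2 and its single-exon relative Psme2b shared reads, since their summed estimated counts were whole in 19 of 20 mice. Summed, they had a log2FC of -0.06 (SE 0.0904, edgeR FDR = 0.68) against Ctrl and -0.04 (SE 0.107, FDR = 0.833) against LS mice. Psme3 and Psme4, which activate the proteasome in the nucleus, had log2FC of -0.13 (SE 0.0502, edgeR FDR = 0.0543) and -0.07 (SE 0.0838, FDR = 0.561) against Ctrl mice. The inhibitor Psmf1 had -0.09 (SE 0.1, edgeR FDR = 0.521), and the testis form Psma8, at 0.172 to 1.85 CPM, had -0.16 (SE 0.296, FDR = 0.735).

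The light chain without deposits was assessed in LS mice. In LS against Ctrl mice 0 of 46 entries were called by edgeR (3 at an unadjusted p under 0.05) or by DESeq2 (4), beside 0.0207% of all tested genes. The lowest edgeR FDR was 0.755, for the ATPase Psmc3, at a log2FC of 0.19 (SE 0.0678). The median log2FC was 0.06 over the members and 0.00 over all tested genes, and 31 of the 46 estimates were above 0. All LS mice were in the first run.

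To compare the core with the regulatory particle, the difference of the means of log2 CPM of the 14 core and 17 regulatory genes was taken in each mouse. In the first run it lay at -0.16 to 0.11 in AL (median -0.08), at -0.17, -0.10, -0.14 and -0.12 in LS and at -0.23 to -0.10 in Ctrl mice. In the second run it was -0.48 and -0.69 in AL8 and AL9, and -0.57, -0.72 and -0.26 in Ctrl5 to Ctrl7. The runs did not overlap, and the groups overlapped within each run. With run in a linear model the difference between groups was 0.06 for AL against Ctrl, 0.04 for AL against LS and 0.02 for LS against Ctrl mice. All were below the residual SD of 0.119, and the second run lay 0.41 below the first. The residual SD is the spread of single mice and not the error of a group difference. Within the first run alone the values were 0.12, 0.06 and 0.06, with a residual SD of 0.0735. The difference between AL and Ctrl mice there was larger than this spread of single mice, with AL3, AL4 and AL5 inside the Ctrl range.

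**Figure D4:**
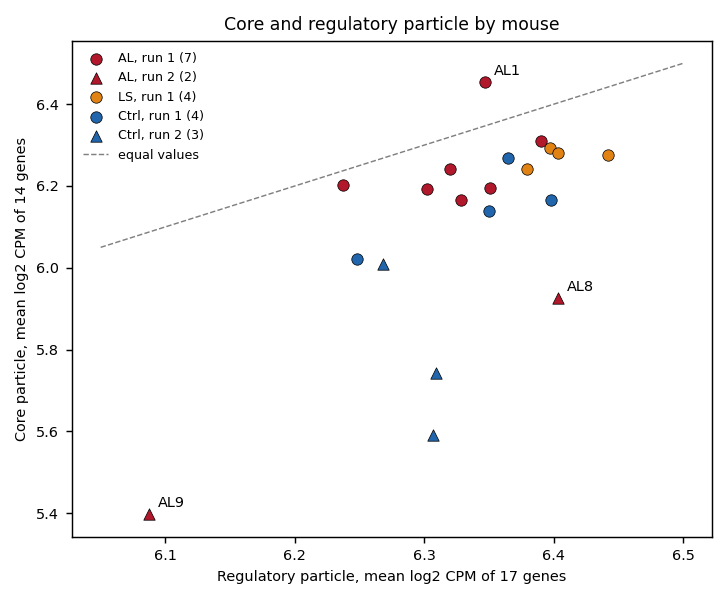
Mean log2 CPM of the 14 core genes against that of the 17 regulatory particle genes, 1 point per mouse, with circles for the first run, triangles for the second and a dashed line where both are equal. The mice of the second run lie lower on the core axis, AL9 lowest at 5.398, and AL1 is the only mouse above the line.

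Core genes differed more between the runs than between the groups. In the second against the first run, 1 of 46 entries was higher (Psmd3, log2FC 0.41, edgeR FDR = 7.14e-05) and 20 were lower, beside 21.3% and 22.4% of all tested genes. Of the 14 core genes 13 were lower, from Psma7 at -0.25 to Psmb5 at -1.03, with a median log2FC of -0.43 over the 14. Psmb2 was the core gene not called. Of the 17 regulatory particle genes 3 were lower (Psmc6 at -0.57, Psmd6 at -0.33 and Psmc2 at -0.22) and Psmd3 was higher, with a median of -0.04. The chaperones Psmg1, Psmg2 and Psmg3 (-0.44, -0.77 and -0.52) and the activator Psme2 (-0.34) were the others that were lower. The run difference moved with transcript length over all genes, with a median log2FC of -0.42 up to 1000 bases, -0.10 in the next class up to 1500, -0.01 up to 2000, 0.03 up to 3000 and 0.07 above 3000 bases. Over the members the medians in the same classes were -0.34, -0.30, -0.16, 0.01 and -0.12, from 11, 14, 9, 8 and 3 genes. Core genes had a median length of 1120 bases and regulatory particle genes of 1591. Psma2, the longest core transcript with 2911 bases, had a log2FC of -0.57. The part of length in the run difference was not tested.

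**Figure D5:**
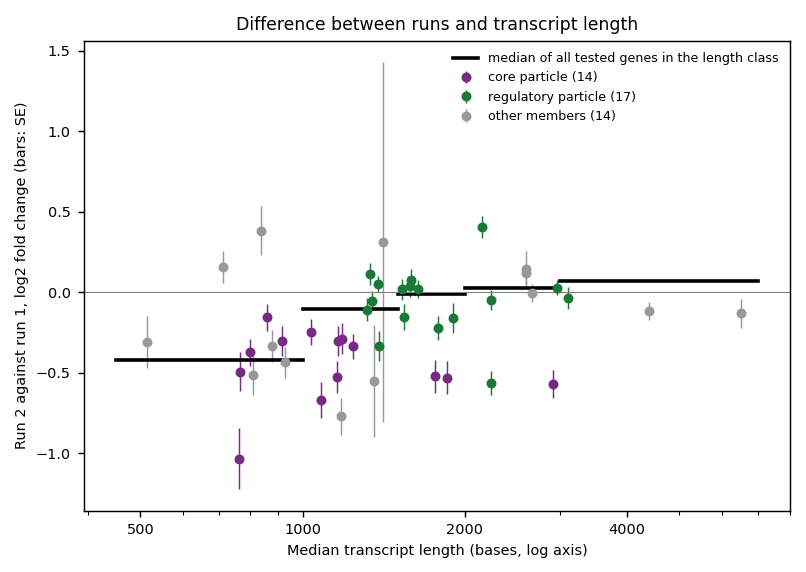
Log2 fold change of the second against the first sequencing run for 45 tested members with a transcript length (points, with SE as bars), against median transcript length on a log axis, with black lines for the median of all tested genes in each length class. The core genes lie between -1.03 and -0.16, below most regulatory particle genes, and the black lines climb from -0.42 to 0.07 with length.

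The difference between AL and Ctrl mice also moved with transcript length. Over all genes the median log2FC in AL against Ctrl mice went from 0.17 up to 1000 bases to -0.07 above 3000 bases (0.16 to -0.08 within the first run). Among the called members, Psmc4 and Psmd4, which were higher, have 1342 and 1332 bases, and Psmd1, Psmd5 and Psmc6, which were lower, have 3112, 4397 and 2234, while Psmg4, Psme1 and Psmd6 were lower with 514.5, 711 and 1387 bases. The part of length in these changes was not tested.

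The difference between AL and Ctrl mice was compared between the runs. By edgeR 0 of 46 members had a different AL against Ctrl value in the second run than in the first (1 at an unadjusted p under 0.05), nor by DESeq2 (2), beside 1.49% of all tested genes. In the model of group by run, 7 members were called within the first run (Psmd1, Psmg4, Psmd4, Psmd5, Psmc4, Psmb5 and Psme1), beside 18% of all genes. Within the second run 3 were called (Psmc6, Psmd1 and Psmd3), beside 13.5%. With the first run fitted alone, 13 members were called (5 higher, 8 lower), and the share of all tested genes in that fit is not given here. Without AL8, when AL9 alone stood for AL mice in the second run, 14 members had a lower AL against Ctrl value there, 9 of them core genes, beside 16% of all tested genes. That single library was assumed to vary like the mice of the other groups, so the count describes AL9 and is no replicated difference between runs. AL9 had the lowest core mean, 5.398 log2 CPM against 5.59 or more in all other mice, and its fibroblast markers (6 of 6 detected) summed to 4438 CPM against 384.8 in AL8 and 525.1 to 866.7 in the Ctrl mice of that run. The part of this in the result was not tested. Without AL9, 8 members were called in AL against Ctrl, 4 higher (1 of them a core gene) and 4 lower, beside 24.6% of all tested genes.

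Markers of other cells were also read. Counts of called markers are for AL against merged controls, where 16.5% of all tested genes were higher and 19.8% lower. Liver genes (7 of 7 tested, all 7 lower in AL against merged controls) summed to 0.62 to 30.8 CPM in AL, 5.58 to 155.5 in LS and 35.2 to 270.7 in Ctrl mice of the first run, and to 0.154 to 1.19 CPM in the second run, where 4 of 7 were at 0 in all Ctrl mice. With their mean as a covariate, a setting chosen after seeing the data, 5 members were called in AL against Ctrl, 5 in AL against LS and 6 in AL against merged controls, beside 19.5%, 18.8% and 25.4% of all tested genes. Psmd4, Psmd6, Psme1 and Psmg4 lost their call against Ctrl mice there, and Psmg4 that against LS mice. In the first run the liver sums of AL and Ctrl mice did not overlap. The covariate is thus tied to group, and a lost call cannot tell the 2 apart. Macrophage markers (3 of 8 higher) summed to 178.2 to 690.1 CPM in AL, 322.8 to 378 in LS and 216.7 to 434.2 in Ctrl mice. In the same order, endothelial markers (2 of 6 higher) summed to 394.2 to 668.6, 399 to 478.6 and 425.5 to 618.4. Lymphocyte markers (1 of 6 higher) summed to 11.4 to 18.8, 9.57 to 11.3 and 9.76 to 16.98. The AL and Ctrl ranges overlapped in each of these sums. Of the heart muscle markers 2 of 8 were lower and 0 higher, and of the fibroblast markers 0 were called. Their part in the subunit values was not tested. The markers of testis and thymus, where Psma8 and Psmb11 belong, summed to at most 0.708 and 3.2 CPM.

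Genes that work with the proteasome were read from lists. Counts in all these lists stand beside 10.7% of all tested genes higher and 15.4% lower against Ctrl mice. Against LS mice these shares were 9.78% and 13.6%. The lists are short, and their counts were not tested against these shares. The factor gene Nfe2l1 lay at 425.5 to 572.2 CPM in AL, 554.6 to 611.1 in LS and 489.6 to 596.2 in Ctrl mice, with a log2FC of -0.09 (SE 0.0664, edgeR FDR = 0.331) against Ctrl and -0.18 (SE 0.0786, FDR = 0.11) against LS mice. Of 9 genes for the control of proteasome genes, Nfe2l1 among them, 0 were higher and 3 lower against Ctrl mice, the protease gene Ddi2, which processes NRF1 (log2FC -0.21, edgeR FDR = 0.00405), and Ufd1 and Vcp (both -0.19, FDR = 0.00832 and 0.0182), which extract proteins from the endoplasmic reticulum. Against LS mice 5 were lower, with the chaperone gene Hspa5 at -0.49 (edgeR FDR = 0.0205) and Ngly1, which removes sugar chains, at -0.22 (FDR = 0.0198).

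Of 16 genes for proteasome-associated proteins, 15 were tested. Against Ctrl mice Sem1, a small lid subunit outside the naming rule, was higher (log2FC 0.35, edgeR FDR = 0.00346), and 2 were lower, the ubiquitin shuttle Rad23b (-0.18, FDR = 0.0145) and the deubiquitinase Usp14 (-0.28, FDR = 0.018). Against LS mice 0 were higher and 2 lower, Rad23b (-0.27, edgeR FDR = 0.00414) and Usp14 (-0.30, FDR = 0.0303). Of the immunoproteasome genes, which replace the catalytic subunits under interferon, 0 of 3 were called against Ctrl mice by edgeR. Psmb8 was higher against LS mice (log2FC 0.75, SE 0.23, edgeR FDR = 0.024), at 9.04 to 21.4 CPM in AL, 6.22 to 10.4 in LS and 7.63 to 16.3 in Ctrl mice.

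Genes for ubiquitin and its activation moved both ways. Rps27a, which encodes ubiquitin fused to a ribosomal protein, was higher against Ctrl mice (log2FC 0.28, edgeR FDR = 0.0124), and the activating enzymes Uba6 (-0.60, FDR = 8.71e-05) and Uba1 (-0.20, FDR = 0.017) were lower. Uba6 and Uba1 were also lower against LS mice (-0.70 and -0.28, edgeR FDR = 0.000292 and 0.00701). Of 9 entries for 8 ubiquitin ligases of muscle, Stub1, a partner of chaperones, was higher against Ctrl mice (0.31, edgeR FDR = 0.00306), and Trim55 (-0.32, FDR = 0.0226) and Nedd4 (-0.24, FDR = 0.0225) were lower. Against LS mice Stub1 and Trim54 were higher (both 0.30, edgeR FDR = 0.012 and 0.00801) and Trim55 (-0.44, FDR = 0.0132) and Nedd4 (-0.30, FDR = 0.0157) were lower. The atrophy ligases Trim63 and Fbxo32 were not called, with log2FC of 0.10 for Trim63 and of -0.40 and -0.37 for the 2 entries of Fbxo32 (edgeR FDR = 0.545, 0.0661 and 0.0892).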

How the data were processed

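RNA of the heart apex of 20 mice (9 AL, 4 LS, 7 Ctrl) was analysed. The authors prepared stranded mRNA libraries, aligned paired reads to GRCm38 with STAR and quantified them with Salmon in the nf-core workflow, and deposited estimated counts per gene in a single table of 25308 genes, not normalized or adjusted for the run. Of the deposited values of the table, 9.45% were not whole (tolerance 0.001), and counts were rounded. Groups came from the sample titles, and 0 columns were left unused. The authors describe separate sequencing runs, but neither titles nor library names state the run of a mouse. The split used here goes with the form of the library names (SCoeur against D or S) and with depth. Genes were filtered with filterByExpr (minimum count 10), scaled by TMM and tested with glmQLFit and glmQLFTest of edgeR 4.0.16 in R 4.3.3, with group and run in the model and a model of group by run for values within runs; FDR is the Benjamini-Hochberg adjusted p, two-sided. LS and Ctrl were merged for 1 comparison. Log2 CPM used a prior count of 2. Alternatives used DESeq2 1.42.0, sva 3.50.0 (ComBat-seq) and others given in the closing section. The tests were checked on simulated data. Lengths and coordinates came from GENCODE M21 (46 of 48 entries), which may differ from the annotation the authors used, and promoters from RefSeq (GRCm38.p6). Figures used matplotlib 3.10.9.

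The members, gene lists and tests were chosen with earlier results of these data known. Named members were Psmb5, Psmb6 and Psmb7, up to 8 of lowest FDR among those called in each AL comparison, the member of lowest p in each class, those differing between runs, the activators, inhibitor and chaperones, those not passing the filter, and up to 3 genes of each related list. Members named for their lengths, extremes of level or motifs, and further genes of the lists, were chosen after their values were seen. Precision is limited by depth, and intervals were not computed. Some genes of the related lists are not reported here.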

Additional observations from a re-analysis of the deposited data

Results flagged for a closer look

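Within the first run, each group of log2 CPM values of the tested members and of the particle means was searched for a mouse far from the others of its group (Dixon's test at 95%), which chance marks in about 1 in 20 groups. Of 147 groups, 12 had such a mouse. In AL1 the core genes Psmb1 (105.4 CPM, the next AL mouse at 87.4), Psmb2 (67.8 against 58.9) and Psmb6 (104 against 86.7) stood above the other AL mice. AL2 stood above them in Psmd5 (16.5 against 15.04 CPM) and AL7 in Psmg1 (11.4 against 9.91). LS4 was high in Psma4 (93.1 against 82.2 CPM) and low in Psmb5 (37.9 against 53.3), and LS2 was high in Psmd11 (64.9 against 63.1). Ctrl2 was low in Psmd4 (61.7 against 66.0 CPM) and Psmd13 (52.95 against 56.9). Ctrl3 was low in the Psmd10 entry ENSMUSG00000116430 (1.15 against 6.04 CPM), whose reads are shared with the other entry, and high in the core minus regulatory particle difference (-0.0963 against -0.212 log2).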

How the results depend on the processing

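Over 789 refits of called members (no filter, RLE factors, DESeq2, the likelihood ratio test, ComBat-seq, no run term, first run alone, only the 2 groups compared, the replicate block, Xist or liver genes as covariate, summed entries, and each mouse left out), 676 kept their side of the threshold, 113 lost it and 0 reversed. ComBat-seq left 0 called members in the 3 comparisons with AL mice, and the threshold of 0.58 left 0 in each. Against Ctrl mice the 8 calls became 5 with no run term, with only the 2 groups compared, with the replicate block or with liver genes. They became 13 (5 higher, 8 lower) with the first run fitted alone, where 2 core genes were called. The model of group by run called 7 within the first run. Shares of all tested genes are not given for most of these refits, so their counts are not set against a background. Against merged controls the 11 calls became 7 with no run term and 6 with liver genes. Leaving out each mouse gave 5 to 11 calls against Ctrl (5 without AL1, AL3, AL5, Ctrl1 or Ctrl4), 4 to 8 against LS, 9 to 13 against merged controls, 0 to 0 in LS against Ctrl, and 0 to 14 members differing between runs (14 without AL8). The core minus regulatory difference ranged over 0.04 to 0.10 (AL against Ctrl), 0.01 to 0.05 (AL against LS) and 0.00 to 0.05 (LS against Ctrl), and LS against Ctrl was 0.20 with no run term, where AL against LS was -0.05. Mice with the same number correlated between -0.154 and 0.231 in their deviations. Mice with different numbers were not compared, so these values cannot tell whether the numbers pair mice. The labels state no pairing. The replicate block gave 5, 6 and 8 calls against Ctrl, LS and merged controls. The cause of these shifts was not tested. Depth limits the second run and the low genes Psmg4, Psma8 and Psme2b.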
